A study of Mus musculus with 5 samples.

Results

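The genes of 8 transcription factors that act in early natural killer (NK) cell development were examined in NK cells sorted from the mouse spleen: Tcf7, Lef1, Id2, Nfil3, Ets1, Tox, Gata3 and Bach2. They were chosen by symbol as factors of NK commitment and early stages, with earlier results of these data known. The rule of choice used no values. All 8 were found among the 13004 genes of the deposited table. RNA came from 2 MycKO libraries (replicates 5 and 6), from 8-week-old C57BL/6 mice whose Myc alleles were deleted by Cre recombinase under Ncr1 control (Mycdelta/delta/Ncr1Cre), and from 3 control libraries (replicates 1, 2 and 3) of Mycf/f mice of the same age and strain, which carry loxP-flanked Myc. No Cre is named in the control genotype, so loss of Myc and presence of Cre cannot be told apart. Cre driven by Ncr1, the gene of the NK receptor NKp46, acts once that receptor is expressed, which is after commitment to the NK lineage. Live CD3- NK1.1+ DX5+ cells had been sorted. Separate mice are not named in the labels, so the p-values reflect only how far these libraries spread, and that spread could be technical.

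NK cells arise from lymphoid progenitors in the bone marrow, and their commitment depends on a small set of transcription factors. ID2 binds E proteins and keeps them off DNA, NFIL3 acts in NK progenitors, and ETS1 and TOX are needed for normal NK cell numbers. TCF1 (the product of Tcf7) and LEF1 are paralogues that bind the same DNA motif and can recruit beta-catenin, GATA3 directs T cells and helper-type innate lymphoid cells, and BACH2 is a repressor that holds lymphocytes in less differentiated states. The comparison sets the transcript levels of these factors in NK cells labelled as Myc-deleted against those in controls.

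None of the 8 genes changed past the threshold. In limma, with Benjamini-Hochberg adjustment over 11190 genes tested, 0 of 8 had an adjusted p under 0.05, where 1.34% of all genes tested did (1.24% higher and 0.0983% lower in MycKO). At an unadjusted p under 0.05, 1 of 8 was found (Tcf7), beside 13.2% of all genes. Limma-voom on reads called 0 of 8 (2.07% of all genes), and the authors' deposited table called 0 of 8 (3.4% of its genes). The log2 differences, MycKO minus control, ran between -0.22 (Lef1) and 0.47 (Tox), with 3 values above 0 and 5 below, and their median was -0.08, against 0.05 for all genes tested. Both MycKO libraries lay outside the range of the controls for Tcf7 alone, 1 of 8, beside 29.1% of all genes tested. By direction these were 1 of 8 higher in MycKO, beside 18.8%, and 0 of 8 lower, beside 10.4%.

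The annotated promoters of 6 of the 8 genes could be read from RefSeq (GRCm38.p6), as 10 windows of 250 bases before a transcription start. Tox and Ets1 were not matched. Lef1 and Tcf7 had more than 1 window each, and some of the Lef1 windows overlapped, so the 10 windows are not independent. The deleted factor, MYC, binds with its partner MAX the E-box CACGTG, so each window was searched on both strands for this motif and for those of the studied families. CACGTG was in 1 of the 10 windows, at a start inside the Lef1 gene, and in 6.02% of all 32851 windows of this length. The E protein motif CAGCTG was in 4 windows (13.0% of all), the TCF/LEF core CTTTGA in 2 (13.8%), the ETS core CCGGAA in 3 (12.0%), and the GATA core AGATAA (9.99%) and the NFIL3 site TTACGTAA (0.113%) in 0. No matches overlapped in a window. A match describes letters only, and the gene-level values do not say which start was used. Shown are the window with the MYC and MAX E-box, the Bach2 window, which holds a TCF/LEF and an ETS core, and the window of Id2, the most abundant of the 8, which holds an E protein motif. All 3 windows lie inside the GENCODE bounds of their genes, given below, so they precede inner starts and not the outermost one. Bach2 and Id2 had no other window here, and inner refers to position only. Capitals mark the matches, and TCAAAG and TTCCGG are CTTTGA and CCGGAA on the other strand.
Lef1, inner start, chr3:131156044-131156293, plus strand: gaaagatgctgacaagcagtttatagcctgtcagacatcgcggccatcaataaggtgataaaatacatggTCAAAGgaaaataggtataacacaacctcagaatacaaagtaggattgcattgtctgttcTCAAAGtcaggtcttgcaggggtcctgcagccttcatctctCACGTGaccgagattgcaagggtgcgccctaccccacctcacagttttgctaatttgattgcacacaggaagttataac
Bach2, inner start, chr4:32417185-32417434, plus strand: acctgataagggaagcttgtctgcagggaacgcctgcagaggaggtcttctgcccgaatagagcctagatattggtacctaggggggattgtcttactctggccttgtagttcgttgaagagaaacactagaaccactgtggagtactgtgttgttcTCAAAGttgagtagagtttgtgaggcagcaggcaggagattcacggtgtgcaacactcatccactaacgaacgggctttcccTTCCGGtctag
Id2, inner start, chr12:25096093-25096342, minus strand: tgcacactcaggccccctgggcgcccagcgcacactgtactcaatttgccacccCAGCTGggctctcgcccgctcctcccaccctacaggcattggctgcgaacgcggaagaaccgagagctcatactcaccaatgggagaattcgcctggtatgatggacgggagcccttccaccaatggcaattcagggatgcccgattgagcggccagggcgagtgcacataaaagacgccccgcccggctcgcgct

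The libraries had 5451728 (MycKO 5) to 17610826 (control 2) reads in listed genes. Myc was at 12.5 and 8.70 RPKM in MycKO 5 and 6, against 13.0, 23.0 and 21.2 RPKM in controls 1, 2 and 3 (limma adjusted p = 0.297), and values over the whole gene include any reads outside the deleted part. RPKM scales reads to the length of the transcript and the size of the library, so it can be compared between genes. All 9 NK markers, led by Gzma (granzyme A), were present in every library, with a sum of 10240 and 12014 RPKM in MycKO 5 and 6, against 12764 to 14726 RPKM in controls; 1 was above and 4 were below all controls in both MycKO libraries. Of all genes tested, 18.8% were above and 10.4% below all controls in both MycKO libraries, and each count of markers here stands beside these shares. Sums for other cells were higher in MycKO. Measured T cell markers summed to 254.2 and 320.5 RPKM in MycKO, against 152.1 to 170.2 RPKM in controls, and both MycKO libraries exceeded all controls for 7 of 13. Their most abundant member was Lat, which NK cells also express; Cd3g and Cd3e, chosen after their values were seen, rose by 2.53 and 2.83 on the log2 scale (limma adjusted p = 0.00776 and 0.0357, up to 0.0382 and 0.173 with a library left out). Cd8b1, Cd5, Cd6 and Themis were at 0 in at least 1 library. B and plasma cell markers, led by Jchain, summed to 357.3 and 685.5 RPKM in MycKO, against 97.0 to 147.5 RPKM in controls (7 of 10 above all controls). Myeloid markers, led by Lyz2 in MycKO and Itgax in controls, summed to 2136 and 1516 RPKM in MycKO, against 430.1 to 642.1 RPKM in controls (12 of 14). These leading genes themselves overlapped between the groups. Lyz2 was at 733.6 and 210.5 RPKM in MycKO 5 and 6, against 55.1 to 219.7 RPKM in controls. Itgax was at 234.7 and 203.1 RPKM in MycKO 5 and 6, against 172.9 to 211.8 RPKM in controls. Red cell and platelet markers, led by Car1, came to 201.6 and 90.5 RPKM in MycKO, against 5.20 to 10.7 RPKM in controls (3 of 6), and Pf4 was at 0 in at least 1 of the 5 libraries. Basophil and mast cell markers, led by Mcpt8 in MycKO and Ms4a2 in controls, came to 62.9 and 9.53 RPKM in MycKO, against 3.46 to 4.88 RPKM in controls, with Mcpt8 at 0 in every control and Cpa3, Fcer1a, Prss34 and Cd200r3 at 0 in at least 1 library (3 of 6). Type 1 innate lymphoid cell markers, led by Il7r, reached 81.0 and 125.5 RPKM in MycKO, against 30.1 to 33.7 RPKM in controls (7 of 8). Markers of types 2 and 3, led by Ncoa7, reached 12.0 and 12.5 RPKM in MycKO, against 8.76 to 9.71 RPKM in controls (3 of 5), with Klf5 at 0 in every control and Il17rb in at least 1 library. T cells are known to express Tcf7, Lef1, Ets1, Tox, Gata3 and Bach2, and B cells Ets1 and Bach2, so the part of these cells in the values below was not tested. Fewer cells of a type and less RNA per cell cannot be told apart in such bulk samples.

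**Figure D1:**
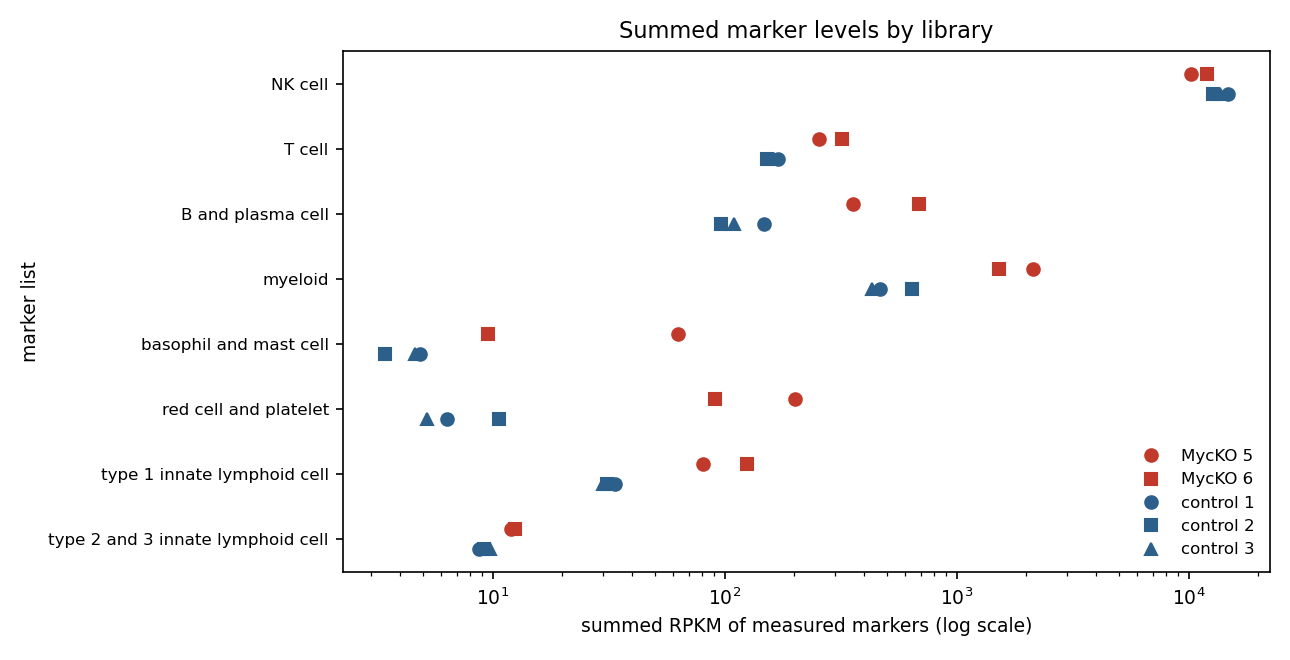
Summed RPKM of the measured markers of 8 lists (log axis), 1 point per library, MycKO in red above control in blue. NK cell markers sum to 10240 RPKM or more in all 5 libraries, and both MycKO libraries lie right of all controls for the other 7 lists.

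The 8 transcripts spanned a wide range of levels. In every library Id2, Ets1 and Tcf7 were the highest, in that order, and Bach2 was the lowest. Nfil3, Tox and Lef1 changed places between libraries, and in MycKO 5 Tox (34.0 RPKM) also lay above Gata3 (28.6 RPKM). By RPKM averaged over the 5 libraries the order was Id2, Ets1, Tcf7, Gata3, Nfil3, Tox, Lef1 and Bach2. Within groups the middle of this order differed: Tox (28.3 RPKM) averaged above Nfil3 (23.1 RPKM) in MycKO, and Lef1 (21.8 RPKM) above Tox (20.2 RPKM) in controls. Id2 lay above Ets1, Ets1 above Tcf7, Tcf7 above Gata3, Gata3 above Nfil3 and Lef1 above Bach2 in the group means, with no overlap of ranges in either group. Nfil3 and Tox, and Tox and Lef1, overlapped in both groups, and the first of each pair was the higher in 2 of 5 libraries only. In MycKO the mean of Id2 exceeded that of 99.6% of the 13004 genes, Ets1 98.4%, Tcf7 97.7% and Bach2 48.0%. In controls the shares were 99.5% for Id2, 98.6% for Ets1, 96.8% for Tcf7 and 52.3% for Bach2. Of the summed RPKM of the 8 genes, Id2 took 59.1% and 59.2% in MycKO 5 and 6, against 61.0%, 51.5% and 59.8% in controls 1, 2 and 3. Tcf7 took 12.8% and 13.3% in MycKO 5 and 6, against 10.9%, 10.6% and 11.4% in controls 1, 2 and 3. Ets1 took 19.7% and 19.9% in MycKO 5 and 6, against 20.5%, 28.2% and 20.5% in controls 1, 2 and 3. Between the groups the shares of Tcf7 (higher in MycKO) and Ets1 (lower) did not overlap, while those of all other members did. A share depends on the other members of the sum, and the RPKM values of Ets1 themselves overlapped. No such share exists for all genes. By RPKM, the groups did not overlap for 29.1% of all genes tested.

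**Figure D2:**
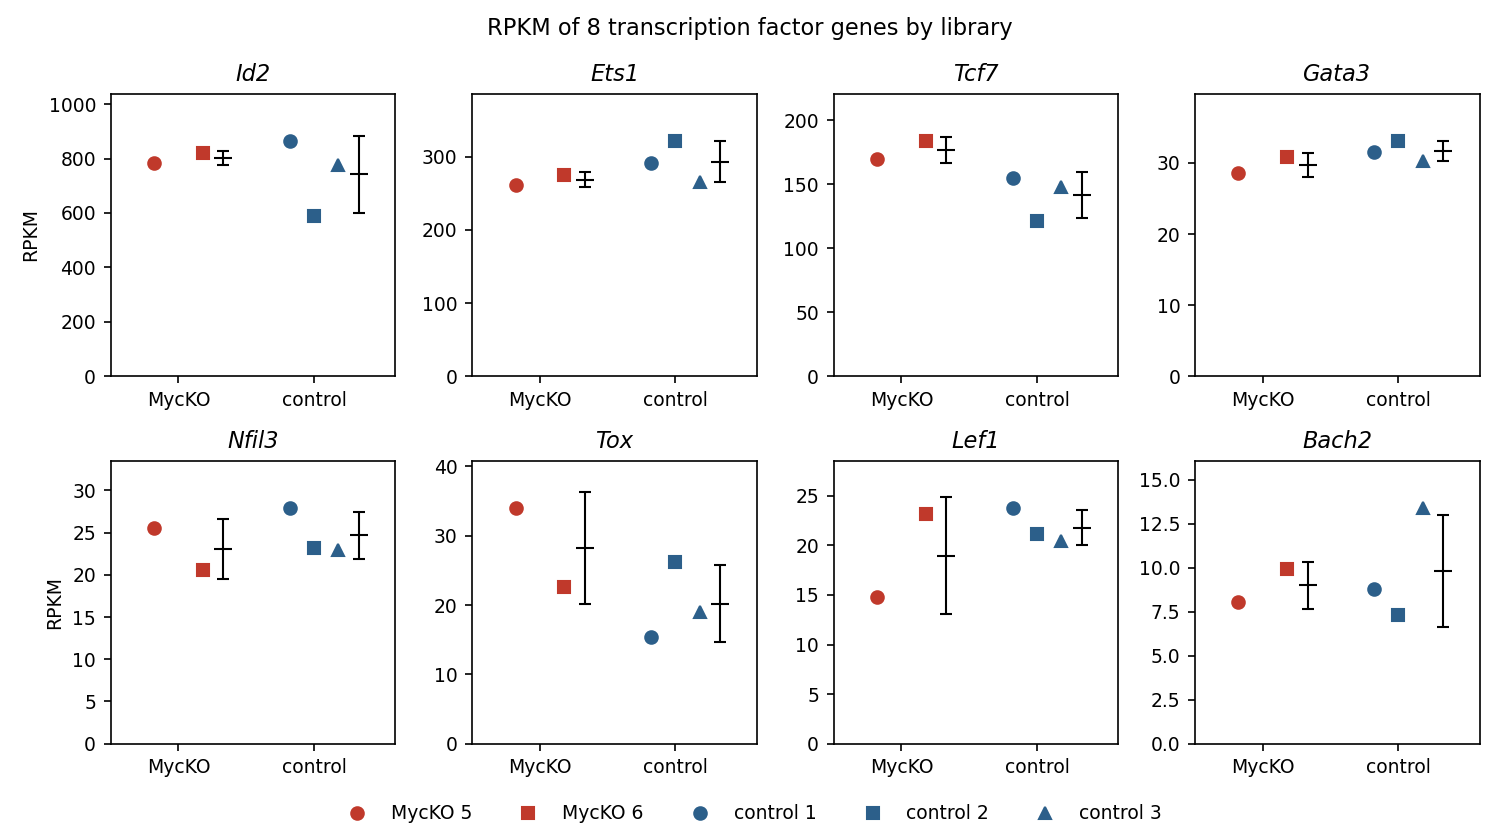
RPKM of the 8 genes by library, each panel with its own linear axis from 0, MycKO in red left of control in blue; black bars give the mean and SD (n = 2 MycKO, n = 3 control). Both MycKO points of Tcf7 lie above all 3 controls, and the groups overlap for the other 7 genes.

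Tcf7 (Entrez 21414; mm10 chromosome 11, 52252371 to 52283014, minus strand) encodes TCF1, a high mobility group box factor of early innate lymphoid progenitors whose level is known to fall as NK cells mature. It was at 169.7 and 184.2 RPKM in MycKO 5 and 6, against 155.4, 121.3 and 148.2 RPKM in controls 1, 2 and 3. Both MycKO libraries were above every control, as in 18.8% of all genes tested. The means were 177.0 ± 10.2 RPKM (SD, n = 2) in MycKO and 141.6 ± 17.97 RPKM (SD, n = 3) in controls. The difference on the log2(RPKM + 1) scale was 0.33 (SE 0.13, 95% interval 0.02 to 0.63, unadjusted for other genes), or 1.25-fold, with a limma adjusted p of 0.349. Larger differences in either direction were found in 32.4% of genes tested. Control 2 was the lowest of the 5, and without it the value was 0.22. Leaving out each of the others gave 0.27 to 0.40, and over all alternatives the adjusted p lay between 0.256 and 0.728.

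Lef1 (Entrez 16842; chromosome 3, 131110471 to 131224356, plus strand) encodes the paralogue of TCF1. It was at 14.8 and 23.1 RPKM in MycKO 5 and 6, against 23.8, 21.2 and 20.5 RPKM in controls 1, 2 and 3. The MycKO libraries lay apart, MycKO 5 being the lowest of all 5 and MycKO 6 within the range of the controls. The 298 reads behind MycKO 5 give a counting error of 5.79%, while the SD of the MycKO values was 31.0% of their mean. MycKO minus control came to -0.22 on the log2 scale (SE 0.21, 95% interval -0.71 to 0.27; limma adjusted p = 0.766). Its direction rested on MycKO 5, since it was 0.084 without that library and -0.53 without MycKO 6. The RefSeq window with the MYC and MAX E-box printed above belongs to an inner start of this gene.

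The ratio of Tcf7 to Lef1 within a library, after adding 1 RPKM to each, was 10.8 and 7.68 in MycKO 5 and 6, against 6.31, 5.52 and 6.95 in controls 1, 2 and 3. Both MycKO libraries were above all controls. The mean difference of the log2 ratio was 0.55, with means of 3.19 ± 0.35 (SD, n = 2) in MycKO and 2.64 ± 0.17 (SD, n = 3) in controls. A two-sided exact permutation test gave p = 0.2, which is the smallest that 3 against 2 samples allow, so the design cannot reach the threshold. Without MycKO 5 the difference was 0.30.

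Of 15 measured relatives and partners of TCF1 and LEF1 (other TCF genes, beta-catenin and its cofactors), 12 were tested and 0 passed limma. At an unadjusted p under 0.05 there were 2, beside 13.2% of all genes tested, and limma-voom called 1, beside 2.07%. Their median log2 difference was 0.01, against 0.05 for all genes tested. The smallest p belonged to Tcf7l2, which encodes the family member TCF4, at 2.84 and 7.27 RPKM in MycKO 5 and 6, against 0.795, 0.270 and 0.506 RPKM in controls 1, 2 and 3. Its log2 difference was 1.90 (limma adjusted p = 0.0985), and limma-voom called it (3.61, adjusted p = 0.0382). Next came the beta-catenin cofactor genes Bcl9 (0.85, limma adjusted p = 0.364) and Bcl9l (-0.36, limma adjusted p = 0.535).

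Id2 (Entrez 15902; chromosome 12, 25093799 to 25097140, minus strand) encodes the inhibitor of E proteins that innate lymphoid cells maintain. It was at 783.9 and 821.8 RPKM in MycKO 5 and 6, against 866.1, 588.2 and 775.0 RPKM in controls 1, 2 and 3. The MycKO values lay inside the range of the controls, and control 2 was the lowest of the 5. A log2 difference of 0.13 was found (SE 0.17, 95% interval -0.26 to 0.52; limma adjusted p = 0.849), and it turned to -0.030 without control 2. The 5441 reads of the shallowest library give a counting error of 1.36%, against an SD of 19.1% of the mean among controls.

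ID2 acts by binding E proteins, so its transcript was set against the sum of the 3 E protein genes Tcf3, Tcf4 and Tcf12. The ratio was 9.22 and 9.87 in MycKO 5 and 6, against 11.1, 6.85 and 9.78 in controls 1, 2 and 3. The MycKO ratios lay inside the range of the controls. The difference of the log2 ratio was 0.08 (two-sided exact permutation p = 1), and it was -0.12 without control 2. Levels of Tcf3 were 32.3 and 36.5 RPKM in MycKO 5 and 6, against 31.4, 44.3 and 31.3 RPKM in controls 1, 2 and 3. Tcf12 was at 37.4 and 33.5 RPKM in MycKO 5 and 6, against 32.8, 32.0 and 37.2 RPKM in controls 1, 2 and 3. Of the 5 E protein and ID protein genes besides Id2, 0 passed limma, 0 passed limma-voom, and 0 had an unadjusted p under 0.05. Over all genes tested these shares were 1.34%, 2.07% and 13.2%. The 5 genes had a median log2 difference of 0.31, against 0.05 for all genes tested. The smallest p belonged to Tcf4 (0.31), Id1 (0.64) and Id3 (0.70), with limma adjusted p-values of 0.664, 0.69 and 0.737. Id3 was at 13.8 and 2.04 RPKM in MycKO 5 and 6, against 3.69, 2.26 and 3.60 RPKM in controls 1, 2 and 3, so that MycKO 5 alone stood high, and the value was -0.44 without it and 1.85 without MycKO 6.

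**Figure D3:**
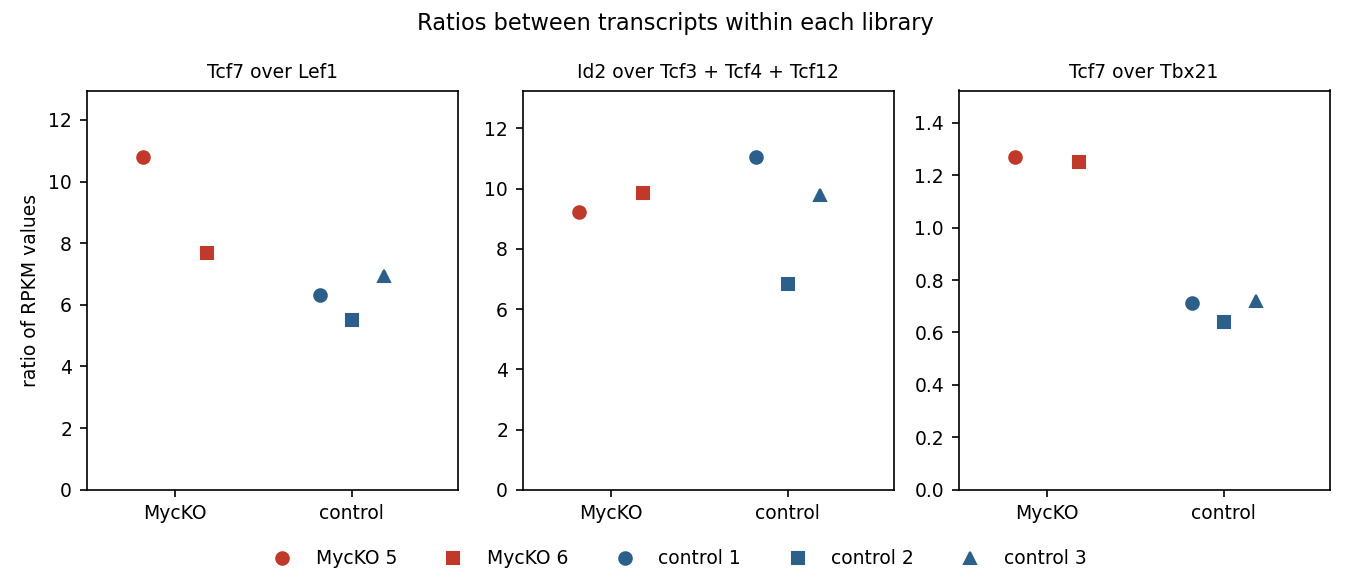
Ratios of RPKM values within each library on linear axes from 0, MycKO in red left of control in blue: Tcf7 over Lef1 and Tcf7 over Tbx21 (1 RPKM added to each), and Id2 over the sum of Tcf3, Tcf4 and Tcf12. The groups do not overlap for Tcf7 over Lef1 (7.68 and above in MycKO, 6.95 and below in controls) or for Tcf7 over Tbx21, and they overlap for Id2. Tcf7 over Tbx21 was chosen after its values were seen and had to separate the groups.

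Nfil3 (Entrez 18030; chromosome 13, 52967209 to 52981073, minus strand) encodes a basic leucine zipper factor that NK progenitors need. It was at 25.6 and 20.5 RPKM in MycKO 5 and 6, against 27.9, 23.1 and 23.0 RPKM in controls 1, 2 and 3. MycKO 6 was the lowest and control 1 the highest of the 5, and the groups overlapped. The log2 difference was -0.10 (SE 0.17, 95% interval -0.49 to 0.30; limma adjusted p = 0.902), and it turned to 0.055 without MycKO 6. This gene had the fewest reads of the 8, with 278 in MycKO 5, which give a counting error of 6.00%.

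Ets1 (Entrez 23871; chromosome 9, 32636221 to 32757820, plus strand) encodes the founding member of the ETS family. It was at 261.1 and 275.7 RPKM in MycKO 5 and 6, against 291.4, 322.1 and 265.9 RPKM in controls 1, 2 and 3. Controls 1 and 2 were above both MycKO libraries, and control 3 was between them. The log2 difference was -0.12 (SE 0.11, 95% interval -0.39 to 0.14; limma adjusted p = 0.758). The direction was kept without each library in turn, at -0.19 to -0.053.

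Among 14 measured relatives in the ETS family, 13 were tested. Limma called 0 and limma-voom 0, beside 1.34% and 2.07% of all genes tested. An unadjusted p under 0.05 was found for 4 of the 13, beside 13.2%. Their median log2 difference was 0.31, against 0.05 for all genes tested. Spi1, which encodes PU.1, a master factor of myeloid and B cells, was at 42.6 and 18.8 RPKM in MycKO 5 and 6, against 6.35, 13.5 and 2.21 RPKM in controls 1, 2 and 3 (log2 difference 2.07, limma adjusted p = 0.19). The sum of myeloid markers was higher in both MycKO libraries too (2136 and 1516 RPKM, against 430.1 to 642.1 RPKM in controls), and their part in this value was not tested. The repressor gene Etv3 was at 21.7 and 14.1 RPKM in MycKO 5 and 6, against 7.66, 11.1 and 9.68 RPKM in controls 1, 2 and 3 (0.83, limma adjusted p = 0.199). Gabpa, which encodes the DNA-binding subunit of GABP, was at 21.9 and 23.7 RPKM in MycKO 5 and 6, against 30.8, 30.5 and 28.7 RPKM in controls 1, 2 and 3 (-0.38, limma adjusted p = 0.271). MycKO and control values did not overlap for any of these 3 genes, which were named for their small p. In the list, 4 of 13 were higher and 3 lower without overlap, beside 18.8% and 10.4% of all genes tested.

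Tox (Entrez 252838; chromosome 4, 6686353 to 6991557, minus strand) encodes a high mobility group box factor without which few NK cells form. It was at 34.0 and 22.5 RPKM in MycKO 5 and 6, against 15.3, 26.2 and 19.0 RPKM in controls 1, 2 and 3. MycKO 5 was the highest of the 5, and MycKO 6 was below control 2. Tox had the widest spread of the 8 genes over the 5 libraries, with the highest value 2.21 times the lowest. The log2 difference of 0.47 was also the largest of the 8 in size (SE 0.26, 95% interval -0.14 to 1.08; limma adjusted p = 0.534), and larger ones were found in 20.9% of genes tested. It was 0.18 without MycKO 5 and 0.75 without MycKO 6, with adjusted p-values of 0.25 to 0.93 over the libraries left out.

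Gata3 (Entrez 14462; chromosome 2, 9857078 to 9890034, minus strand) encodes a zinc finger factor of T cells and innate lymphoid cells. It was at 28.6 and 30.9 RPKM in MycKO 5 and 6, against 31.5, 33.1 and 30.3 RPKM in controls 1, 2 and 3. These were the closest values of any of the 8 genes, with the highest 1.16 times the lowest, and MycKO 6 fell between controls 1 and 3. On the log2 scale MycKO minus control was -0.09 (SE 0.13, 95% interval -0.39 to 0.22; limma adjusted p = 0.873).

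Of 4 measured relatives and partners of TOX and GATA3, 3 were tested. Limma called 0 and limma-voom 0, beside 1.34% and 2.07% of all genes tested. An unadjusted p under 0.05 was found for 1 of the 3, beside 13.2%. Their median log2 difference was 0.10, against 0.05 for all genes tested. Gata1, the erythroid and mast cell GATA factor, was at 9.54 and 2.56 RPKM in MycKO 5 and 6, against 0, 0.955 and 0.0368 RPKM in controls 1, 2 and 3 (2.28, limma adjusted p = 0.122). Red cell and platelet markers (201.6 and 90.5 RPKM in MycKO, against 5.20 to 10.7 RPKM in controls) and basophil and mast cell markers stood higher in MycKO as well, and their part was not tested. Zfpm1, which encodes the GATA cofactor FOG1, had a log2 difference of -0.35 (limma adjusted p = 0.438), and Tox4 of 0.10 (limma adjusted p = 0.862).

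Bach2 (Entrez 12014; chromosome 4, 32238804 to 32586108, plus strand) encodes a basic leucine zipper repressor that pairs with small MAF proteins. It was at 8.07 and 9.93 RPKM in MycKO 5 and 6, against 8.78, 7.29 and 13.4 RPKM in controls 1, 2 and 3. Control 3 was the highest and control 2 the lowest, so that both MycKO values lay inside the range of the controls. The log2 difference was -0.08 (SE 0.28, 95% interval -0.74 to 0.58; limma adjusted p = 0.956). It turned to 0.14 without control 3 and to 0.054 without MycKO 5. Its antisense gene Bach2os, which shares 537 of the 9940 exon bases of Bach2, was at 1.1 and 0 RPKM in MycKO 5 and 6, against 0, 1.2 and 0 RPKM in controls 1, 2 and 3. Whether counting used strand was not stated, and without strand the reads of shared exons cannot be told apart. Antisense genes also share 1208 exon bases with Lef1, 260 with Tox and 155 with Gata3, and a gene on the same strand shares 77 with Gata3.

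Of 11 measured genes among BACH partners and other basic leucine zipper relatives, 10 were tested. In limma 1 rose, Hmox1, and 0 fell, beside 1.24% and 0.0983% of all genes tested. The 10 genes had a median log2 difference of 0.12, against 0.05 for all genes tested. Hmox1, the heme oxygenase gene known as a target of BACH repressors, was at 121.9 and 293.2 RPKM in MycKO 5 and 6, against 42.5, 50.6 and 57.2 RPKM in controls 1, 2 and 3. It rose by 1.91 on the log2 scale (limma adjusted p = 0.0449). The call was lost without MycKO 6 (1.28, limma adjusted p = 0.0631), and without control 1, 2 or 3 (limma adjusted p of 0.151, 0.0642 and 0.124), and over all alternatives it was lost in 9 of 13. Myeloid markers, which include those of red pulp macrophages, cells known for high Hmox1, stood higher in MycKO as given above, and their part was not tested. The next smallest p belonged to the erythroid factor gene Nfe2 (0.68, limma adjusted p = 0.414) and the oxidative stress factor gene Nfe2l2 (0.36, limma adjusted p = 0.435).

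**Figure D4:**
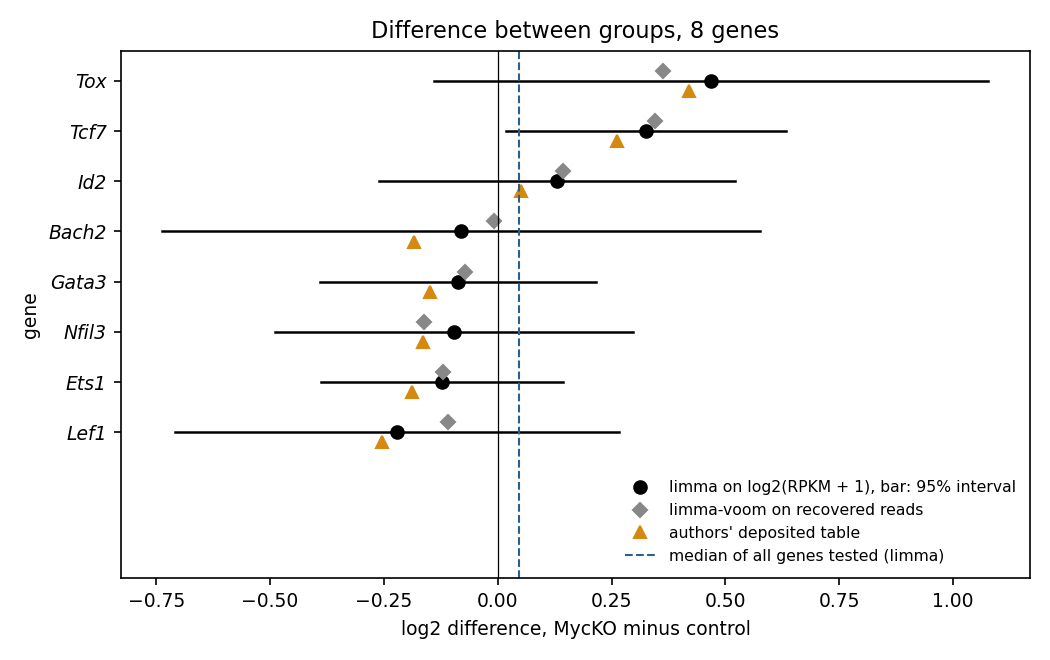
Log2 difference, MycKO minus control, for the 8 genes: circles with 95% intervals from limma on log2(RPKM + 1), diamonds from limma-voom, triangles from the authors' deposited table, and a dashed line at the median of all genes tested (0.05). Only the interval of Tcf7 (0.02 to 0.63) leaves out 0, before adjustment for other genes.

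Read as folds, the limma intervals of the 8 genes ran between 0.600 at the lower end (Bach2) and 2.11 at the upper end (Tox). A p above the threshold does not show that a level was the same in both groups, so these bounds give the sizes of difference that the 5 libraries leave possible. The narrowest interval, that of Ets1, allowed 0.764-fold to 1.10-fold. In the authors' deposited table the log2 ratios of the 8 genes had the same signs, from -0.25 (Lef1) to 0.42 (Tox), and the smallest adjusted p was 0.616 (Tcf7).

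The 8 factors were set beside 28 further factors of NK and innate lymphoid commitment, of which 26 were measured and 25 tested. Limma called 0, limma-voom called 2, and 9 had an unadjusted p under 0.05. Over all genes tested these shares were 1.34%, 2.07% and 13.2%. Values were above 0 for 12 and below for 13, with a median of -0.08, against 0.05 for all genes tested. The smallest p belonged to Tbx21, which encodes the maturation factor T-bet, at 133.5 and 147.1 RPKM in MycKO 5 and 6, against 218.8, 190.1 and 206.0 RPKM in controls 1, 2 and 3. Its log2 difference was -0.54 (limma adjusted p = 0.0695), and limma-voom called it (-0.53, adjusted p = 0.0313). Next were Ikzf2, which encodes Helios (1.25, limma adjusted p = 0.168, and 0.0164 in limma-voom), and Klf2, a factor of quiescence and egress (-0.49, limma adjusted p = 0.183). Chosen after their values were seen, the maturation factors Prdm1 (-0.61), Zeb2 (-0.40), Runx3 (-0.35) and Eomes (-0.27) had limma adjusted p-values of 0.227 to 0.358, and for each both MycKO libraries were below all controls. In the whole list 10 of 25 genes were lower and 6 higher without overlap, beside 10.4% and 18.8% of all genes tested. The sum of NK cell markers was also lower in MycKO 5 and 6 (10240 and 12014 RPKM, against 12764 to 14726 RPKM in controls). The part of the NK cell share of the RNA in these lower values was not tested.

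The ratio of Tcf7 to Tbx21, chosen after the values were seen and therefore given without a test, was 1.27 and 1.25 in MycKO 5 and 6, against 0.711, 0.640 and 0.721 in controls 1, 2 and 3. Tcf7 was the more abundant of the pair per transcript length in both MycKO libraries and Tbx21 in all 3 controls. Both MycKO libraries were above all controls for Tcf7 and below them for Tbx21, so the ratio had to separate the groups. The log2 ratio averaged 0.33 ± 0.02 (SD, n = 2) in MycKO and -0.54 ± 0.09 (SD, n = 3) in controls. T cells express Tcf7 as well. Cd3g, of the T cell marker list, was at 62.0 and 75.9 RPKM in MycKO 5 and 6, against 11.5, 14.3 and 8.14 RPKM in controls 1, 2 and 3. The cells had been sorted as CD3- NK1.1+ DX5+. Type 1 innate lymphoid cell markers were also above all controls in both MycKO libraries for 7 of 8. The part of either cell type in this ratio was not tested.

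Markers of the stages in which these factors act were set beside them. Of 12 markers of immature NK cells, 1 rose in limma (limma-voom called 3) and 0 fell, with a median log2 difference of 0.67, against 0.05 for all genes tested. Over all genes tested limma called 1.24% as higher. Kit, the stem cell factor receptor gene, rose by 1.23 (limma adjusted p = 0.0214), with the call lost without MycKO 5, MycKO 6, control 1 or control 3 (adjusted p-values of 0.0579 to 0.144). Il7r (1.73, limma adjusted p = 0.0532) and Ltb (1.11, limma adjusted p = 0.0855) did not pass limma. Limma-voom called both, with limma-voom adjusted p-values of 0.00407 and 0.0167. Type 1 innate lymphoid cell markers, a list that also holds Il7r, came to 81.0 and 125.5 RPKM in MycKO, against 30.1 to 33.7 RPKM in controls. T cell, B and plasma cell, and basophil and mast cell marker sums were likewise higher in both MycKO libraries, as given above, and the part of all these cells in the values was not tested. Of 8 markers of mature NK cells, 4 fell and 0 rose, with a median of -0.50, and limma-voom called 4. Values were above 0 for 2 of the 8. Both MycKO libraries were above all controls for 1 and below them for 5, beside 18.8% and 10.4% of all genes tested. Over all genes tested limma called 0.0983% as lower, and limma-voom called 2.07% in either direction. Cma1, a mast cell protease gene that mature NK cells express, was named after its values were seen. The 4 were Klrg1 (-1.35), Cma1 (-1.11), S1pr5 (-0.86) and Itgam (-0.69), with limma adjusted p-values of 0.034 to 0.0496. All 4 lost the call without MycKO 5, control 1 or control 3, Itgam also without MycKO 6, and Itgam and Cma1 without control 2. With a pseudocount of 0.1 (limma adjusted p of 0.0509 to 0.0739) or without a variance trend (0.0923 to 0.137), 0 of the 4 were called. Over these omissions the highest adjusted p was 0.168 for Klrg1, 0.157 for Cma1, 0.235 for S1pr5 and 0.289 for Itgam. The sum of NK cell markers was lower in both MycKO libraries (10240 and 12014 RPKM, against 12764 to 14726 RPKM in controls). Its part in the falls of mature markers was not tested. Whether the markers and the 8 factors differed in response was not tested.

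**Figure D5:**
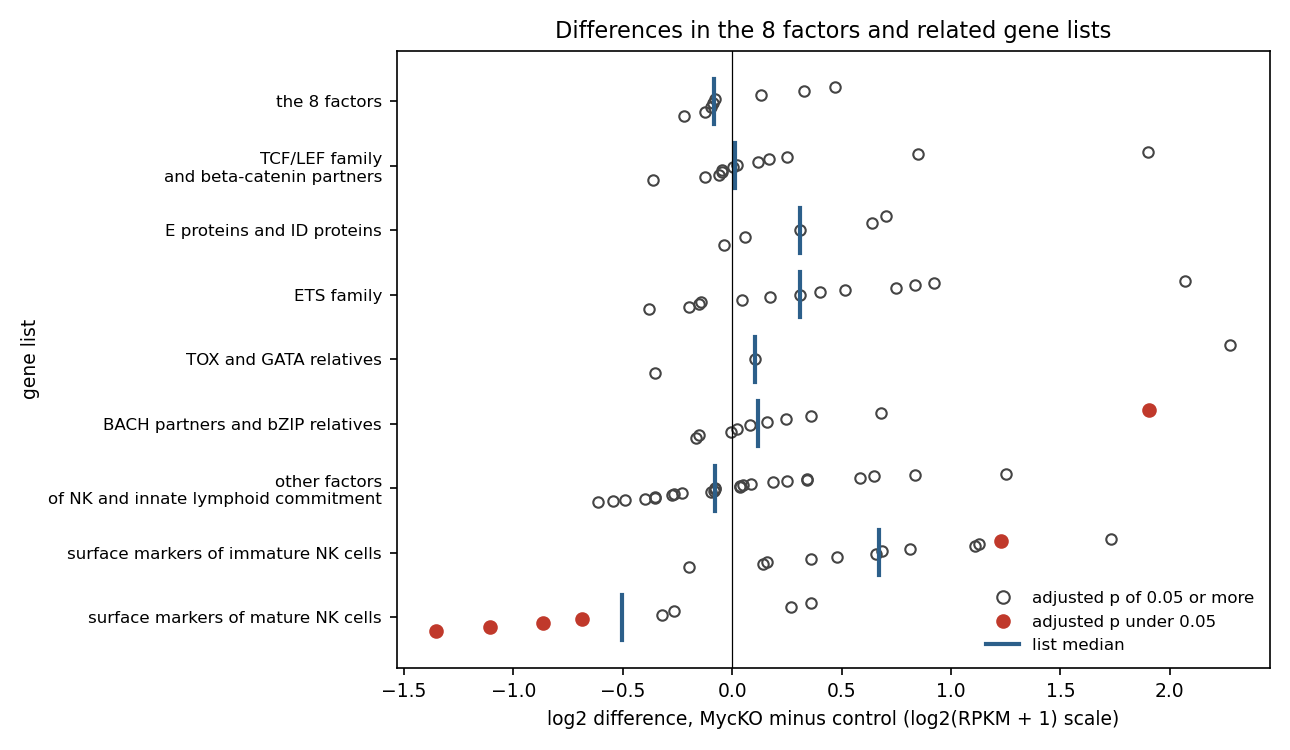
Log2 difference, MycKO minus control (log2(RPKM + 1) scale), of each tested gene in the 8 factors and in 8 related lists; filled red points passed limma at an adjusted p under 0.05, and blue bars are list medians. No point of the 8 factors is filled and their median is -0.08, while 4 markers of mature NK cells are filled on the left.

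For each factor, the genes with the most similar pattern were sought among 6996 genes of adequate level, by the root mean square difference between log2(RPKM + 1) values centred over the 5 libraries. With so few libraries many genes come close, so this is a description. Nearest to Tcf7 were Pebp1 (0.01) and Ctsc (0.03), and 131 genes lay within 0.1. Nearest to Id2 were Lypla2 and Cst7 (0.02 and 0.03), with 130 genes within 0.1. Ets1 was most like its family relative Elk3 (0.02) and Ttc1 (0.02), with 576 genes within 0.1. Nfil3 was most like Cbfb, the gene of the RUNX partner CBF-beta, and Cpsf3 (both 0.04), with 201 within 0.1. Gata3, whose values hardly varied, had 857 such genes, led by Mapkapk5 (0.0027) and Mapre2 (0.02). Lef1 had 49, led by Csrp2bp and Zfp959 (both 0.05). Bach2 had 15, led by Slc35e3 (0.04) and Brf1 (0.05). Tox had 4, and the nearest were the ETS family gene Etv6 (0.06) and Prkd2 (0.09). Etv6 was at 15.6 and 10.9 RPKM in MycKO 5 and 6, against 7.17, 11.5 and 8.26 RPKM in controls 1, 2 and 3, the same order of libraries as for Tox.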

How the data were processed

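Per the labels' protocols, RNA of the sorted cells was made into strand-specific dUTP libraries and sequenced as single reads. The submitters' processing notes name TopHat, edgeR and the build mm10, without roles. Versions, annotation, counting tool and use of strand: not given in the sources used here. Per the file headers, the authors deposited an RPKM value for each sample, means of normalized signal (overall and by group), a ratio (fold change), its log2 value, and p-values raw and adjusted, for 13004 genes. The program behind the authors' p-values is not named there.

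The planned test for RPKM was used. The filter asked for 1 RPKM or more in 2 or more samples and left 11190 genes, and limma 3.58.1 in R 4.3.3 was fitted to log2(RPKM + 1) for 2 groups over 5 samples, with a mean-variance trend (residual degrees of freedom 3, prior 4.41). Tests were two-sided, with Benjamini-Hochberg adjustment over all genes tested and a threshold of 0.05. This scale understates changes of low genes. Reads were recovered from RPKM and the group means: 100% of values were whole within 0.0001 of a read. They served for depth, for counting error (which leaves out other variation) and for limma-voom. No 2 samples agreed within sampling noise (chi-square per degree of freedom of at least 17.3). Single ratios were tested with an exact permutation test in scipy 1.17.1. The fit was tested on simulated data.

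The 8 members and all lists were chosen with earlier results of these data known. Genes named are the members, the 3 smallest p of each related list, the most abundant gene of each marker list and those at 0 (1 of them is not reported here), the 2 genes most like each member (mean log2 of at least 3), Myc and Ncr1. Ncr1 itself was at 632.8 and 744.1 RPKM in MycKO 5 and 6, against 1619, 930.8 and 1243 RPKM in controls 1, 2 and 3 (limma adjusted p = 0.143). Coordinates are from GENCODE vM21 (mm10). Alternatives were scaling by median of ratios or by upper quartile, 0.1 as pseudocount, other filters, no trend, limma-voom, a threshold of 0.01, omission of each sample and, added after seeing the data, the authors' deposited p-values. Figures were drawn with matplotlib 3.10.9.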

Additional observations from a re-analysis of the deposited data

How the results depend on the processing

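No member was called in any alternative run. Without 1 library each, the log2 differences ran between 0.22 and 0.40 for Tcf7, 0.18 and 0.75 for Tox, -0.030 and 0.25 for Id2, -0.53 and 0.084 for Lef1, -0.25 and 0.055 for Nfil3, -0.19 and -0.053 for Ets1, -0.14 and -0.033 for Gata3, and -0.25 and 0.14 for Bach2. The sign thus turned for Lef1 and Bach2 without MycKO 5 (0.084 and 0.054), for Nfil3 without MycKO 6 (0.055), for Bach2 without control 3 (0.14) and for Id2 without control 2 (-0.030). It turned under no scaling, pseudocount, filter or other test tried, 8 per gene. The ratio of Tcf7 to Lef1 stayed above 0 on the log2 scale (0.30 to 0.79), and that of Id2 to E proteins lay between -0.12 and 0.22. Tcf7 to Lef1 kept its sign with a pseudocount of 0.1, and Id2 to E proteins kept it with Tcf3 and Tcf12 alone. Of the other genes given with a fold change, Id3 alone turned (-0.44 without MycKO 5, 1.85 without MycKO 6).

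The count of genes called, 150, was 34 without MycKO 5, 54 without MycKO 6, 39, 217 and 35 without control 1, 2 and 3, 80 with a pseudocount of 0.1, 232 in limma-voom, 24 at a threshold of 0.01 and 442 in the authors' deposited table, which tested 13004 genes. The cause of these shifts was not tested, other than the stricter threshold. No paired analysis was possible because the groups share no replicate numbers. MycKO 5 had the fewest reads in listed genes (5451728). There the counting error of the 8 genes was largest, from 1.18% (Ets1) to 6.00% (Nfil3). For each of the 8 this error was below the SD, in percent of the mean, of MycKO and of controls.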
